A study of Rattus norvegicus with 3 samples.

Results

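Scattered dual-mark peaks are H3K4me3 peaks of rat round spermatids that lie on an H3K9me3 peak outside the regions where H3K4me3 peaks crowd. A peak of the H3K4me3 list belonged to the set if it was on chromosomes 1 to 20, shared at least 1 bp with a peak of the H3K9me3 list, and had its midpoint in a 1-Mb window with fewer than 15 H3K4me3 midpoints. The set held 828 of the 7684 peaks of the H3K4me3 list, and of the 7572 on chromosomes 1 to 20. Members were thus selected on measured values, the overlap of the peaks of the lists and the local number of H3K4me3 peaks, and these are given as a description. Over all H3K4me3 peaks of chromosomes 1 to 20, 31.5% lay on H3K9me3, and among the 5716 in windows with fewer than 15 midpoints the share was 14.5%, which is the rule itself.

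The data come from chromatin immunoprecipitation and sequencing (ChIP-seq) of untreated round spermatids from the testis of Sprague-Dawley rats. Precipitation used 2 µg of a mouse antibody to H3K4me3 or of a rabbit antibody to H3K9me3, 1 library each, and the third library had no antibody. The labels state neither the animals' age nor whether cells were pooled over animals, and they do not give the purity of the spermatids, which peak positions without gene names cannot check. Peak lists of the 2 precipitates were used. What the peaks were called against is not stated. The list names carry the word that the title of the library without antibody also carries. That word was read as the control. If it meant peaks called with precipitate and control exchanged, every position below would describe an excess in the control.

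H3K4me3, trimethylation of lysine 4 of histone H3, is laid down by the SET1 and MLL family of methyltransferases and is best known from nucleosomes beside active or poised gene starts, most of them rich in CpG. H3K9me3, trimethylation of lysine 9, is written by enzymes such as SUV39H1, SUV39H2 and SETDB1, is bound by HP1 proteins, and is known from pericentromeric satellites, silenced retrotransposons and clusters of zinc finger genes. The marks usually occupy separate parts of the genome. Round spermatids are haploid and still carry nucleosomes, most of which are later replaced by transition proteins and protamines. A peak in both lists comes from a population of cells, and these lists do not tell whether the marks sat on the same nucleosome, on the same chromosome or in the same cells.

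Each value below rests on 1 library per mark of unknown depth. No test between conditions or groups of peaks was therefore made, and groups are set side by side. Intervals of shares are 95% Wilson intervals and intervals of medians are 95% order-statistic intervals. Each peak counts as an independent unit in them, and no error beyond counting is covered. The score is the authors' value for each peak, with a lowest value of 30 in either list and a pile-up at 3100, and is compared only within its own list.

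Members were found on all 20 autosomes. Chromosome 1 held 115, chromosome 2 held 87, chromosome 9 held 73 and chromosome 3 held 64, while chromosome 18 held 12 and chromosome 10 held 15. As a share of the scattered H3K4me3 peaks of the chromosome, they ranged from 4.48% on chromosome 10 (2.73 to 7.26%) to 25.98% on chromosome 9 (21.2 to 31.4%). Chromosomes 12 and 16 followed with 23.3% (17.5 to 30.4%) and 21.6% (16.3 to 28.1%), and chromosomes 6 and 18 were low with 6.34% (4.19 to 9.50%) and 7.59% (4.398 to 12.8%). Members were clustered within chromosomes. The 73 of chromosome 9 lay in 16 windows of 1 Mb, and 1 window held 13 of the 38 of chromosome 12. The intervals treat peaks as independent and do not serve to compare chromosomes.

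**Figure D1:**
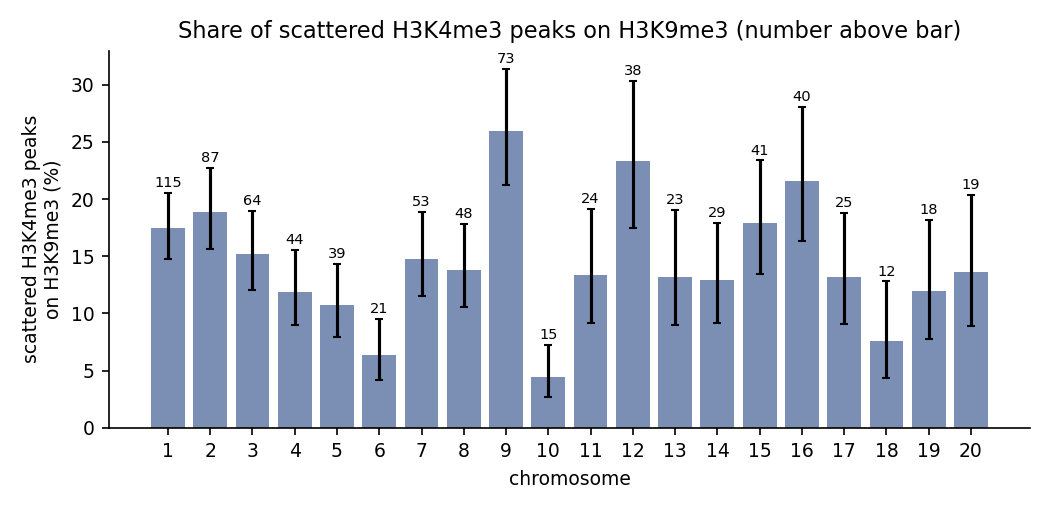
Share of scattered H3K4me3 peaks that lie on H3K9me3, by chromosome, in percent, with 95% Wilson intervals as bars and the number of members above each. Chromosome 9 has the highest share, 25.98% with 73 members, and chromosome 10 the lowest, 4.48% with 15 members.

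The share of members did not closely follow the H3K9me3 cover of the chromosome. Chromosome 13, covered by H3K9me3 peaks to 11.6%, had 23 members and a share of 13.2% (8.97 to 19.1%). Of these, 17 lay between 1 and 35 Mb. Chromosome 16, covered to 1.30%, reached 21.6%. Across the 20 chromosomes Spearman's rho between the share of members and the H3K9me3 cover was 0.26, given as a description of the same 2 libraries.

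At the scale of 1-Mb windows the relation to H3K9me3 cover was steep. In windows covered by H3K9me3 peaks to less than 0.1%, 9 of 1383 scattered H3K4me3 peaks were members (0.651%, 0.343 to 1.23%). The share rose through 20.3% (17.3 to 23.8%) at a cover of 1 to 2% to 65.4% (61.2 to 69.4%) at 5% or more, where 335 of 512 were members. A peak has more H3K9me3 to meet in a covered window, so this order follows in part from the rule. The median cover was 3.72% in the windows of members and 0.266% in those of scattered H3K4me3 peaks off H3K9me3.

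The word scattered holds for the 1-Mb scale only. Another H3K4me3 peak lay within 10 kb of 538 of the 828 members (64.98%, 61.7 to 68.1%), against 39.0% of all scattered H3K4me3 peaks. The share was 34.6% (33.3 to 35.96%) among the 4888 scattered peaks off H3K9me3 and 87.8% (86.1 to 89.4%) among the 1560 crowded peaks on H3K9me3, those in windows with 15 or more midpoints. The order of members and crowded peaks is built into the split by number of midpoints. The median gap to the next H3K4me3 peak was 3934 bp for members, 68593 bp for scattered peaks off H3K9me3 and 924 bp for crowded peaks on it.

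Neighbours were alike in their H3K9me3 state. Of the 732 adjacent H3K4me3 peaks found within 10 kb of a member, 662 also lay on H3K9me3 (90.4%, 88.1 to 92.4%). Beside scattered peaks off H3K9me3, 71 of 1880 such neighbours did (3.78%, 3.00 to 4.74%). A peak can be counted from both of its sides here, and neighbours within 10 kb can share an H3K9me3 region. Beside crowded peaks on H3K9me3, 2078 of 2207 such neighbours lay on H3K9me3 (94.2%, 93.1 to 95.1%), so the likeness was not particular to members. Adjacent H3K4me3 peaks within 10 kb thus mostly shared their H3K9me3 state in each of these groups. Whole sets of close peaks were not examined.

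The 828 members fell into 314 windows, of the 1949 with 1 to 14 H3K4me3 midpoints, and 171 windows held a single member. At the other end, 52 windows with 5 or more members held 405 of them (48.9%, 45.5 to 52.3%), and 16 windows on 13 chromosomes held 10 or more. Joined over gaps of up to 100 kb, the members formed 357 loci, 212 of them with 1 member and 43 with at least 5. The members of the 52 windows had a median H3K4me3 score of 66.4 (60.1 to 75.3), those that were the only member of their window 42.4 (37.6 to 49.3). Their H3K9me3 partners, the overlapping peak with the highest score, differed in the same direction, with medians of 419 (349 to 514) and 107 (71.7 to 142).

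Windows with many members were not of 1 kind. The following were chosen after their values were seen. Between 56 and 57 Mb of chromosome 1, 11 of 12 H3K4me3 peaks were members, lay within 57.3 kb and had scores from 65.8 to 3100, in a window with an H3K9me3 cover of 3.78%. Between 16 and 17 Mb of chromosome 13, all 11 H3K4me3 peaks were members, but their scores ran only from 31.3 to 49.5, although H3K9me3 covered 52.5% of the window and the median partner score was 3095. In the first window the members had a median score of 190 and their partners 997, and peaks at 3100 of both lists met there. In the second window weak H3K4me3 peaks, with a median score of 36.3, lay on strong H3K9me3 peaks. The window with most members, 13 of 13, was 20 to 21 Mb of chromosome 12, with scores from 31.1 to 186 and a cover of 11.1%.

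Members lay more often near the start of the chromosome than scattered peaks off H3K9me3. The first 3 Mb held 66 members (7.97%, 6.31 to 10.02%) and 62 of the 4888 off peaks (1.27%, 0.991 to 1.62%). Crowded peaks on H3K9me3 had a higher share there, 202 of 1560 (12.9%, 11.4 to 14.7%). Chromosome 9 gave 17 of the 66 and chromosome 7 gave 11, while chromosomes 2, 6, 15, 16 and 19 gave none, and on chromosome 6 there were 8 off peaks. In the last 3 Mb, counted back from the last peak end of either list, the order was the other way, with 13 members (1.57%, 0.920 to 2.67%) and 2.58% (2.17 to 3.06%) of the off peaks, and these intervals overlapped.

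The overlap was mostly deep. The H3K9me3 peaks covered 100% of the median member, and the lower quartile was 89.5%. A total of 470 members (56.8%, 53.4 to 60.1%) lay wholly inside their partner, 98 (11.8%) had the partner wholly inside them, and 260 (31.4%) overlapped it in part. The midpoint of the member was on H3K9me3 in 778 cases (93.96%, 92.1 to 95.4%), and under 50% of the length was covered in 53. A single H3K9me3 peak was met by 796 members, and 32 met more than 1. Counting every H3K9me3 peak that met a member, not only the highest in score, there were 776 different partners. On that count 161 members shared a partner with another member and are not independent of it.

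Median scores differed between these classes. A member inside its partner is the narrower peak of the pair, and a partner inside its member likewise. Score rose with width (Spearman's rho 0.65 in members), so the differences follow in part from how the classes are defined. Members inside their partner had a median H3K4me3 score of 53.3 (48.6 to 60.1), and their partners were 1972 bp wide at the median, with a median score of 484 (399 to 576). Where the partner lay inside the member, the member's median score was 93.4 (72.9 to 128) and that of the partner 60.995 (44.3 to 103), with a width of 712 bp. The member of each class whose own score is nearest the class median is given as an example, and its partner need not be typical. The first, chr16:64903805-64904778 in rn6, was 974 bp wide with a score of 53.2 and lay inside an H3K9me3 peak of 5432 bp with a score of 2073, well above the class medians for partners. The second, chr18:41919280-41920531, spanned 1252 bp with a score of 91.7 and contained an H3K9me3 peak of 677 bp with a score of 45.4. In the partial class, chr16:37749003-37750285 had a score of 56.5 and was covered to 97.8% by an H3K9me3 peak with a score of 239.

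The rule places H3K9me3 at the members, so the peak of its profile there is no finding, and the values show how far H3K9me3 reached. At the midpoint 93.96% of them were under an H3K9me3 peak, at 0.5 kb to either side 63.4%, at 1 kb 42.4%, at 5 kb 24.4% and at 20 kb 15.2%. Around crowded peaks on H3K9me3 the share was 97.9% at the midpoint and 28.0% at 20 kb. Around scattered peaks off H3K9me3 it was 0% at the midpoint, by the rule, and 0.685% at 20 kb. At 20 kb, well outside the median member width of 871 bp and the median partner width of 1371 bp, H3K9me3 peaks were thus still frequent around members. Most partners had company, since for 719 members (86.8%, 84.4 to 88.97%) another H3K9me3 peak lay within 10 kb of the partner. This was also so for 85.5% of the 46019 H3K9me3 peaks of chromosomes 1 to 20 that met no H3K4me3 peak.

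**Figure D2:**
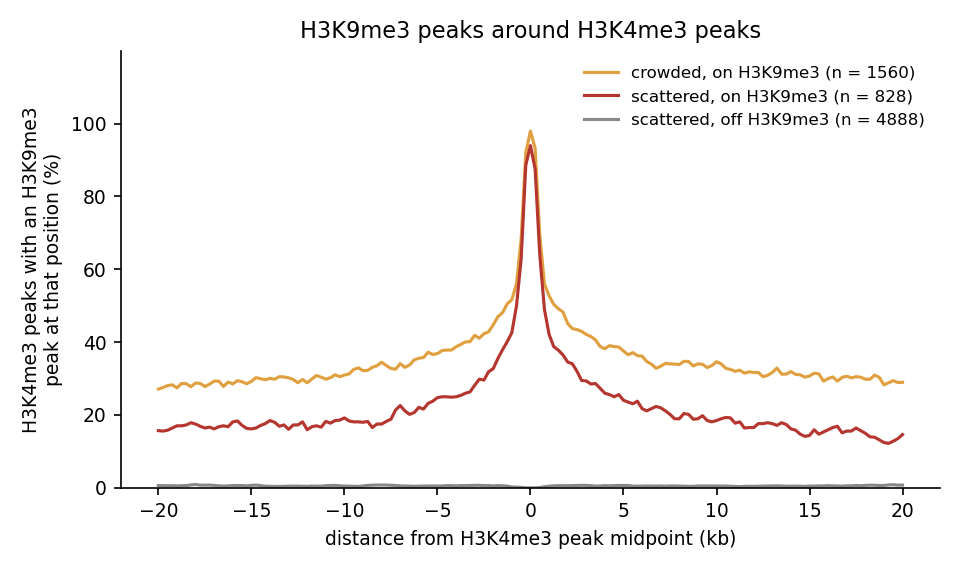
Percent of H3K4me3 peaks that have an H3K9me3 peak at a given distance in kb from their midpoint, every 250 bp to 20 kb on either side. Members (scattered, on H3K9me3) fall from 93.96% at the midpoint to 15.2% at 20 kb, below the crowded peaks on H3K9me3 at 28.0% and above the scattered peaks off H3K9me3 at 0.685%.

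The H3K9me3 peaks under the members had higher scores than those without H3K4me3 and lower ones than those under crowded peaks. The 776 partners had a median H3K9me3 score of 222 (181 to 246) and a median width of 1222 bp (1141 to 1313). The 46019 H3K9me3 peaks without H3K4me3 had 59.2 (58.6 to 59.8) and 926 bp (921 to 932). The 1353 H3K9me3 peaks that met only H3K4me3 peaks outside the set had 333 (303 to 374) and 1267 bp (1206 to 1350). The 90th percentile of the score was 1585 for the partners, 1961 for those under other H3K4me3 peaks and 223 for the peaks without H3K4me3. A total of 179 members (21.6%, 18.95 to 24.5%) lay on an H3K9me3 peak with a score of at least 1000, whereas 144 (17.4%, 14.96 to 20.1%) had a partner under 60 and a further 209 a partner from 60 to 200.

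Read from the H3K9me3 list, the overlap climbed with the strength of H3K9me3. In windows with fewer than 15 H3K4me3 midpoints, 1.80% of 43015 H3K9me3 peaks met an H3K4me3 peak, and over all windows of chromosomes 1 to 20 4.42% of 48148 did. In those same sparse windows the share was 0.698% (0.596 to 0.818%) at H3K9me3 scores of 30 to 60, 4.03% (3.48 to 4.67%) at 200 to 500, 12.9% (10.7 to 15.3%) at 500 to 1000, 44.97% (37.7 to 52.5%) at 1000 to 2000 and 85.0% (73.9 to 91.9%) from 2000 upward. The last class held 60 peaks, of which 51 met H3K4me3. Stronger H3K9me3 peaks were also wider, and whether width plays a part in the climb was not tested. At scores of 30 to 60 the median width of H3K9me3 peaks that met H3K4me3 was 694 bp (674 to 751), against 710 bp (707 to 713) for those that did not, and these intervals overlapped. At scores of 500 to 1000 it was 1831 bp (1506 to 2253), against 5446 bp (5219 to 5591).

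This share differed with the surroundings. In sparse windows covered by H3K9me3 to 5% or less, 56 of 65 H3K9me3 peaks scoring 1000 or more met an H3K4me3 peak (86.2%, 75.7 to 92.5%), and all 26 with a score of at least 2000 did (interval 87.1 to 100%). In windows over 5% the counts were 71 of 164 (43.3%, 35.9 to 50.9%) and 25 of 34 (73.5%, 56.9 to 85.4%). Without chromosome 13 the first of these was 66 of 129 (51.2%, 42.6 to 59.6%). Strong H3K9me3 peaks in poorly covered surroundings thus met an H3K4me3 peak in most cases, and those in richly covered ones less often. H3K4me3 peaks of any score counted. Over all sparse windows the share at H3K9me3 scores of at least 1000 was 55.5% (49.0 to 61.8%). It was 41.9% (35.7 to 48.4%) when H3K4me3 peaks with scores under 60 were left out. At a score of at least 1000, peaks without H3K4me3 had a median width of 8919 bp in richly covered windows (93 peaks). In poorly covered windows it was 7419 bp, from only 9 peaks. For those with H3K4me3 the medians were 4189 bp (71 peaks) and 3105 bp (56 peaks).

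From the side of H3K4me3, members were spread over the whole range of scores. Their median score was 58.8 (53.6 to 62.2), with quartiles of 38.0 and 110. It lay between those of scattered peaks off H3K9me3, 43.6 (42.6 to 44.6), and crowded peaks on H3K9me3, 75.9 (70.6 to 80.6). Scores under 50 were found in 359 members (43.4%, 40.02 to 46.8%) and in 58.4% (57.0 to 59.8%) of the off peaks. Weak peaks were thus common in either group.

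The strongest scattered H3K4me3 peaks lay on H3K9me3. Scores of at least 1000 were found in 19 of the 5716 scattered peaks (0.332%) and in 90 of the 7572 H3K4me3 peaks of chromosomes 1 to 20 (1.19%), and all 19 were members. This was not particular to the set. Of the 1560 crowded peaks on H3K9me3, 71 had such a score (4.55%, 3.62 to 5.70%), against 2.29% (1.47 to 3.56%) of members. The highest crowded peak off H3K9me3 scored 482. None of the 4888 scattered off peaks reached 1000, which allows a share of up to 0.0614% by the limit of 3 counts, or 0.0785% by the Wilson interval, and the highest of them scored 873. At 500 or more (1.07% of scattered peaks), 43 of 61 were members (70.5%, 58.1 to 80.4%). Below that the share of members changed slowly, from 9.98% (8.84 to 11.3%) at scores of 30 to 40 to 19.9% (15.8 to 24.9%) at 200 to 500. The 19 peaks lay in 16 windows on 10 chromosomes. Their windows had a median H3K9me3 cover of 2.17%, and 17 of the 19 had a partner with a score of at least 1000.

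**Figure D3:**
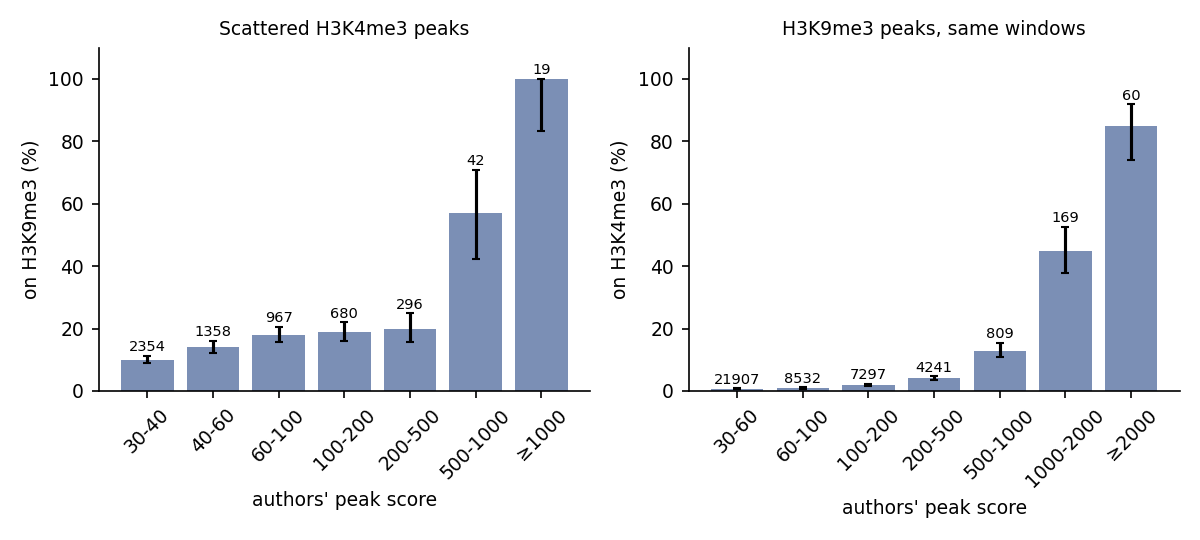
Left, percent of scattered H3K4me3 peaks that lie on H3K9me3, by class of H3K4me3 score; right, percent of H3K9me3 peaks in the same windows that lie on H3K4me3, by class of H3K9me3 score; bars are 95% Wilson intervals and numbers above are peaks in the class. The left share stays at or under 19.9% up to a score of 500 and reaches 19 of 19 from 1000, and the right share climbs from 0.698% to 85.0%.

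Members were also more compact than other scattered peaks of the same strength. Width was not part of the rule. At H3K4me3 scores of 30 to 40 the median widths were alike, 673 bp (651 to 698) for members and 682 bp (676 to 687) for off peaks. At 60 to 100 they were 1034 bp (978 to 1125) and 1312 bp (1279 to 1338), at 100 to 200 1360 bp (1184 to 1445) and 1835 bp (1791 to 1885), and at 200 to 500 1679 bp (1340 to 2199) in 59 members against 2952 bp (2785 to 3130) in 237 off peaks. From 500 to 1000 the 24 members had a median of 1824 bp (1244 to 2554) and the 18 off peaks 4066 bp (3335 to 4898). The intervals did not overlap in any class from a score of 40 upward in which both groups had peaks. Over all scores the median widths, 871 and 893 bp, hid this difference.

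Score and width were accordingly less tied together in members. Spearman's rho across peaks was 0.65 in 828 members and 0.86 in 4888 off peaks, as a description of peaks of 1 library. Crowded peaks on H3K9me3 had 0.61. Their median width was 1828 bp (1623 to 1982) at a score of at least 200, against 2075 bp (1653 to 2287) for members and 2993 bp (2869 to 3177) for off peaks.

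**Figure D4:**
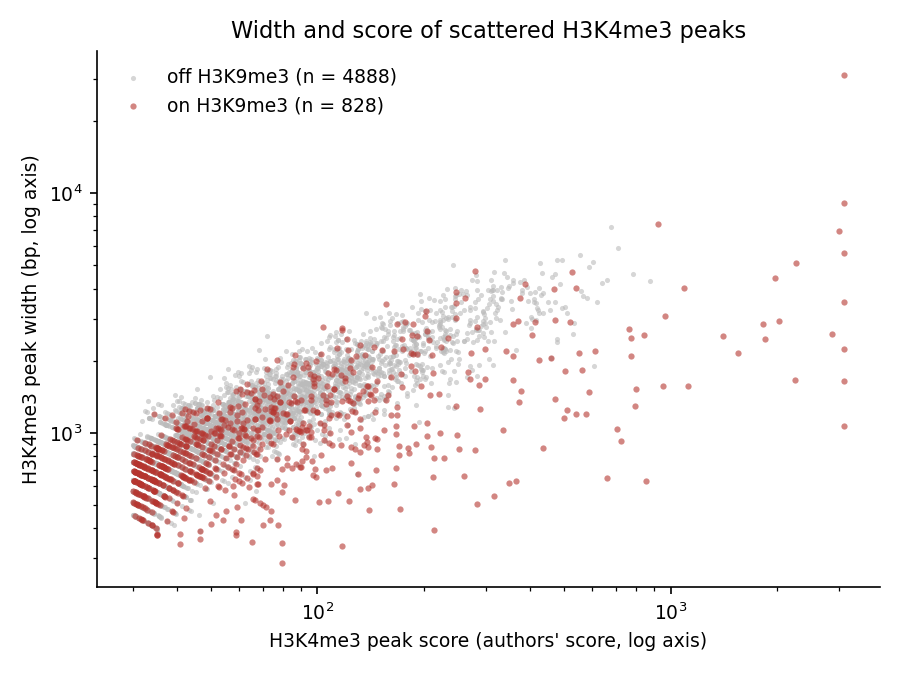
Width in bp against the authors' score of every scattered H3K4me3 peak, both on log axes, with members in red and peaks off H3K9me3 in grey. Off peaks form a narrow band in which width grows with score and which ends at 873, while members also fill the space below that band and extend to 3100.

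Among scattered peaks with a score of at least 100, 6.36% were narrower than 1 kb. Members gave 58 of these, 25.2% (20.04 to 31.2%) of the 230 members with such a score, and off peaks gave 8, 0.991% (0.503 to 1.94%) of 807. Crowded peaks on H3K9me3 had 30.3% (26.8 to 34.1%). The 58 compact members lay in 37 windows on 13 chromosomes, with a median width of 810 bp, and their partners were of like size, 907 bp at the median, with a median H3K9me3 score of 500.3. The strongest, named after its values were seen, was chr18:38497452-38498080, 629 bp wide with a score of 852, inside an H3K9me3 peak of 776 bp with a score of 1634. Next came chr20:40913117-40914044, 928 bp wide with a score of 721, inside an H3K9me3 peak of 1082 bp with a score of 2347.

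The scores of members and partners rose together only loosely. Spearman's rho was 0.37 over 828 pairs. The pairs share libraries, and 161 members share an overlapping H3K9me3 peak with another member. With a partner under 60 the median H3K4me3 score was 42.4 (38.95 to 46.97), with a partner from 60 to 200 it was 44.8 (41.3 to 52.9), and with a partner of 1000 or more 99.1 (76.7 to 130). Scores of at least 200 were found in 7 of 144, 5 of 209 and 57 of 179 members of these classes. A strong H3K9me3 partner therefore went with strong H3K4me3 in some members and not in others.

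**Figure D5:**
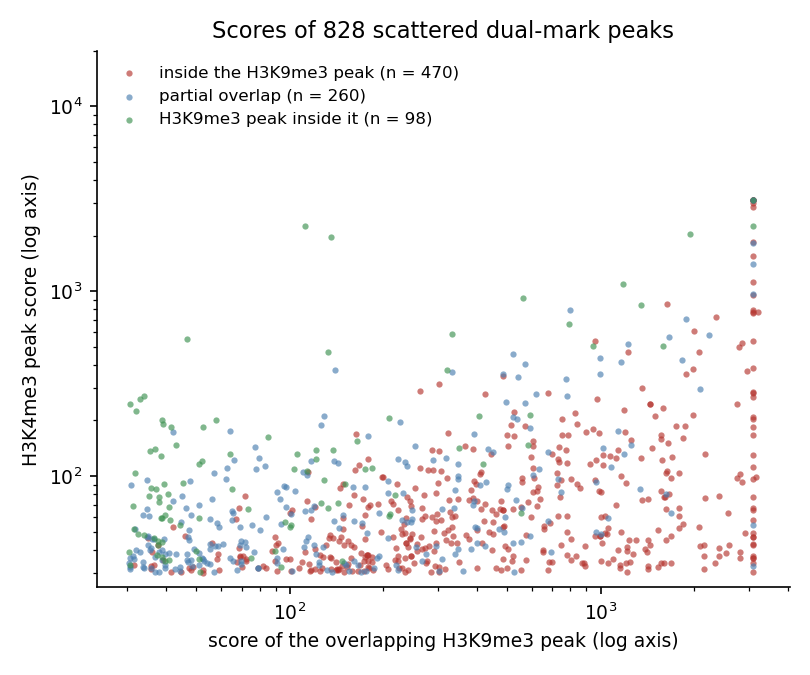
H3K4me3 score of each of the 828 members against the score of its H3K9me3 partner, both on log axes and coloured by the kind of overlap. Members whose partner lies inside them (98) sit mostly at low partner scores, the 470 inside their partner spread to the right, and the column at 3100 holds the tied partners.

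Of the 10 members with the highest scores, 9 had a partner at 3100. In that group, 7 themselves had a score of 3100. The widest of all members, chr1:228994956-229025974, spanned 31019 bp and met 4 H3K9me3 peaks that covered 97.4% of it. On chromosome 1, chr1:56023528-56032608 (9081 bp) and chr1:56035114-56038614 (3501 bp) lay inside H3K9me3 peaks of 9100 and 3728 bp. On chromosome 20, chr20:40826449-40832050 (5602 bp) lay inside an H3K9me3 peak of 5841 bp. The remaining peaks at 3100 were chr12:1508767-1511003, chr19:56337665-56339317 and chr3:41417-42486, with widths of 2237, 1653 and 1070 bp.

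In single cases the outlines of the marks nearly coincided. The midpoints of chr19:56337665-56339317 and its partner were 3 bp apart, and those of chr1:56023528-56032608 and its partner 7 bp. Over all members both edges lay within 100 bp of those of the partner in 128 (15.5%, 13.2 to 18.1%), and among the 19 with a score of at least 1000 in 3 (15.8%, 5.52 to 37.6%). Among crowded peaks on H3K9me3 the share was 19.4% (17.5 to 21.5%). With a score of at least 500 it was 29.5% (22.7 to 37.3%) in crowded peaks on H3K9me3 and 20.9% (11.4 to 35.2%) in members. The median offset of midpoints was 198 bp over all members and 114 bp in those 19. It was 100 bp in the 43 members with a score of at least 500 and 208 bp in the 598 under 100.

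Next in score were chr20:40869041-40875958 with 2996 and chr1:117144554-117147130 with 2869, both inside a partner at 3100. The latter was the only H3K4me3 peak of its window, with the next 391843 bp away, in a window covered by H3K9me3 to 0.693%. The last of the 10, chr3:92142874-92147970, went against the pattern. It was 5097 bp wide with a score of 2263, but its partner had a score of 112 and covered 36.1% of it.

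Among the other members, those on the strongest partners had H3K4me3 scores over a wide range. The highest partner score, 3215, belonged to chr7:100303282-100305378, a lone peak 692074 bp from the next, with an H3K4me3 score of 773. The partner of chr14:15489576-15491572 had a score of 3167, while the member itself had 99.1. Many further partners were tied at 3100. The widest members on them, chr2:191288286-191292475, chr17:53795152-53799173 and chr1:182010243-182013313, had H3K4me3 scores of 387, 540 and 965, and the weak members between 16 and 17 Mb of chromosome 13 also include ones on partners at 3100. The third widest member, chr1:228983273-228990694, spanned 7422 bp with a score of 918.

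In 79 members (9.54%, 7.72 to 11.7%) no other H3K4me3 peak lay within 10 kb of the member. For these, no other H3K9me3 peak lay within 10 kb of the only partner. Their median H3K4me3 score of 54.6 (39.8 to 61.8) was near that of all members, but their partners were weaker, with a median of 72.2 (56.97 to 132) and a width of 777 bp. The strongest of these lone pairs was chr2:193571903-193573470, which was 1568 bp wide with a score of 1118 inside an H3K9me3 peak of 2070 bp with a score of 3100.

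Around the limit of 15 midpoints the share on H3K9me3 was uneven. It was 4 of 42 peaks (9.52%) in the 3 windows with 14 midpoints and 45 of 75 (60%) in the 5 windows with 15. In the 10 windows with 13 or 14 midpoints, 54 of 133 H3K4me3 peaks lay on H3K9me3, with a median score of 73.2 and width of 974 bp. In the 10 windows with 15 or 16 midpoints, just outside, 82 of 155 did, with 68.9 and 931 bp. The limit of 1 bp mattered for few peaks, since 6 members overlapped H3K9me3 by 50 bp or less, with a median score of 43.9, and 4 off peaks were under 50 bp away from it, with a median score of 33.7. A further count, within 1 kb of H3K9me3, took in 68 of the 4888 off peaks.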

How the data were processed

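Per the submitters' processing notes, the authors used bcl2fastq, FastQC and Bowtie 1.2 with the build rn6, in roles that are not given. The deposited peak lists carry names of the caller MACS and a score for each peak, whose definition, like the settings of the caller, is not given in the sources used here. Depth is unknown, and intervals cover counting error only. Starts were counted from 1. Overlaps, gaps between peaks and the H3K9me3 cover of 1-Mb windows were computed with numpy 2.4.6, scipy 1.17.1 and pandas 2.3.3 under Python 3.11.15, tested on simulated data, and the overlap count equalled that of bedtools 2.31.1. Figures used matplotlib 3.10.9. Named regions are the 10 members with the highest score, the 5 others with the highest partner score (ties by width in both), the 5 widest, and the member nearest the median score of each overlap class, with others marked in the text. The members, lists and rules were chosen with earlier results of these data known. Alternatives were a score of at least 60, H3K9me3 within 1 kb, an overlap of at least 0.5 of the smaller peak, limits of 10 and 20 midpoints, windows shifted by 0.5 Mb, and leaving out windows over 5% H3K9me3, chromosome 13, or chromosomes 1, 7 and 9. The rn6 sequence and annotation were not used here, so no gene or sequence is given.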

Additional observations from a re-analysis of the deposited data

Results flagged for a closer look

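Outside the chromosomes of the rule, the same limits picked H3K4me3 peaks on H3K9me3 as well. On X they were 49 of 68 scattered peaks (72.1%, 60.4 to 81.3%), with a median score of 70.7 against 35.9 off H3K9me3. On sequences not placed on a chromosome they were 34 of 37 (91.9%, 78.7 to 97.2%), with a median score of 157. Both were singled out because peaks in data outside the comparisons exceeded the 3 that a count of 0 allows, a bar that any sequence with more peaks passes and that sets neither apart. No control peaks were analysed here.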

How the results depend on the processing

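Leaving out windows with 5 or more members was chosen after the results were seen. No paired analysis was possible because each mark has 1 library. The number of members was 828, and 361 with a score of at least 60 in both lists, 493 without windows over 5% H3K9me3 and 423 without windows of 5 or more members. It lay between 571 and 1040 under the other alternatives. The share of scattered peaks on H3K9me3, 14.5%, was 18.0% with a score of at least 60, 15.7% with H3K9me3 within 1 kb, 10.97% and 17.2% with limits of 10 and 20 midpoints, 13.4% with shifted windows, 9.47% without windows over 5% H3K9me3, 13.3% without chromosomes 1, 7 and 9, and 8.07% without windows of 5 or more members. The median score of members was 115, 65.4 and 49.6, and their median width 1220, 910 and 860 bp, with a score of at least 60, without windows over 5% H3K9me3 and without windows of 5 or more members. Their median covered length was 99.2% without windows over 5% H3K9me3. The median partner score was 499 with a score of at least 60, 152 with H3K9me3 within 1 kb, 174 with a limit of 10 midpoints, 169 without windows over 5% H3K9me3 and 143 without windows of 5 or more members. A score limit raises median scores, and leaving out windows rich in members or in H3K9me3 lowers the number and share of members, by construction. Taking in H3K9me3 within 1 kb can only raise the number and share of members, and it counts H3K9me3 peaks that do not overlap a member as partners. A limit of 10 midpoints can only lower the number of members, and a limit of 20 can only raise it. The cause of the other changes was not tested. At scores of 200 to 500, the median width of members ran from 1564 to 2174 bp and that of off peaks from 2946 to 2957 bp over the 10 alternatives. The share of H3K9me3 peaks with a score of at least 1000 on H3K4me3, 55.5%, ran from 36.7% without windows of 5 or more members to 86.2% without windows over 5% H3K9me3. It was 41.9% with a score of at least 60, 47.5% with a limit of 10 midpoints and 62.9% without chromosome 13.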

Other observations

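Some H3K9me3 peaks met several members. The H3K9me3 peak chr13:16156962-16178398 was 21437 bp wide with a score of 3100 and met 4 members, and chr2:191287916-191297075, 9160 bp wide with a score of 3100, also met 4. The peak chr7:18899241-18906327, again with 4 members, was 7087 bp wide with a score of 1004. Of the 776 partners, 74 met 2 or more members (9.54%, 7.66 to 11.8%). These regions were chosen after their values were seen.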
